A study of Mus musculus with 7 samples.

Results

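The transcripts of the ATP-binding cassette (ABC) transporters of subfamilies A, B, C and G and of the organic anion transporting polypeptides (Slco genes) were examined in the liver of fasted WT and SHIVA mice. A gene was a member when the name given on the array began with Abca, Abcb, Abcc or Abcg, or with Slco, and went on with a digit. This rule used names only and took 57 of 36413 gene names, with 77 probes. Each gene was represented by its brightest probe on average over the arrays, and 40 of the 57 members were detected well enough to be tested.

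Livers came from 3 WT and 4 SHIVA mice, with 1 single-colour Agilent array for each mouse and no pooling. WT mice were C57BL/6 females aged 8 to 12 weeks, without food for 24 h before the liver was taken. SHIVA mice were of the same strain, sex, age and fasting time, and carried a missense mutation in the HMG domain, the DNA-binding part, of the transcription factor Sox17. The mutation arose by ENU mutagenesis and, per the study's methods, is studied in heterozygous mice after backcrossing to C57BL/6. It is present in every tissue and not in the liver alone. All mice were fasted and no fed liver was analysed here, so the comparison is of genotypes within fasting. Whole liver was used. Fewer cells of a type and less RNA per cell cannot be told apart in such samples.

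ABC transporters use the energy of ATP to move a substrate across a membrane, in most cases out of the cell. In hepatocytes they secrete bile salts, phospholipid, cholesterol and conjugated compounds across the canalicular membrane into bile, and load cholesterol onto lipoproteins or return conjugates to blood across the basolateral side. Slco proteins mediate the sinusoidal uptake of organic anions such as bile salts, bilirubin conjugates, thyroid hormones and many drugs.

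Sequences of the gene starts are shown for Abcg5, Abca8b, Abca1 and Slco1a4, which are among the members whose signals did not overlap between the genotypes. They come from RefSeq on GRCm38.p6 and hold 250 bases before and 50 after the start, 5′ to 3′ on the strand of the gene. The table held 55 such windows for 46 of the 57 members.

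The Abcg5 and Abcg8 genes encode the partners of 1 heterodimeric sterol pump and start 110 bases apart on opposite strands. The Abcg5 window (chr17:84682962-84683261, minus strand) shares 209 bases with the Abcg8 window (chr17:84682871-84683170, plus strand), and this common stretch is in capitals.
Abcg5: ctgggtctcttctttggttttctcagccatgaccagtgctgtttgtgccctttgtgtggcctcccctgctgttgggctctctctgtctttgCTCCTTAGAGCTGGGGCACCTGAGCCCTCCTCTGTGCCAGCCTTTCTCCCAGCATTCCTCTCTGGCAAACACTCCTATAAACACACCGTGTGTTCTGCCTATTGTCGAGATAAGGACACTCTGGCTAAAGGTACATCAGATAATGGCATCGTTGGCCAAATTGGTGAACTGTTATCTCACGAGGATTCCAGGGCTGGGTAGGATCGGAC

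The Abca8b window (chr11:109995796-109996095) and the Abca1 window (chr4:53159846-53160145), both on the minus strand, are shown with the E-box letters CACGTG in capitals. The E-box began 18 bases after the Abca8b start and 147 bases before the Abca1 start.
Abca8b: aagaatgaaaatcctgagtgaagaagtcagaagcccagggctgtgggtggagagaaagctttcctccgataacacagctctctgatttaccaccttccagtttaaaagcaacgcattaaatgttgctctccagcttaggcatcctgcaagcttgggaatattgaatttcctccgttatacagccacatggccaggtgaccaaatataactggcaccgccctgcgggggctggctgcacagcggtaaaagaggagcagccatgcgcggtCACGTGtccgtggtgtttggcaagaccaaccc
Abca1: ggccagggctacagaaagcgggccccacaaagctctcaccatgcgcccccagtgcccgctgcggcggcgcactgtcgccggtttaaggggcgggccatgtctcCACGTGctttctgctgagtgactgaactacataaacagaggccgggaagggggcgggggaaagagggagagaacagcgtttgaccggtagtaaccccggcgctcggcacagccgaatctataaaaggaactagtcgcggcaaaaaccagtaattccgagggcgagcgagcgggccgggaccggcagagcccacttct

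The Slco1a4 window (chr6:141856171-141856470, minus strand) is shown with AACAAT in capitals, the letters at the core of sites bound by SOX proteins, 145 bases before the start.
Slco1a4: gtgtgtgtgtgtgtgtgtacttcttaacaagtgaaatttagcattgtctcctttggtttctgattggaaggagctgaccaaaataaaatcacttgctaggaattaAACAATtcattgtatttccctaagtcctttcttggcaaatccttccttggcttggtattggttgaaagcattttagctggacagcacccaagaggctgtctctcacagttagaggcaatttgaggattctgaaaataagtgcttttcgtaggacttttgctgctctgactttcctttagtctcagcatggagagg

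Motifs were searched on both strands as exact letters. AACAAT or its complement ATTGTT was in 4 of the 55 member windows (7.27%), those of Abcc10, Abcc12, Slco1a4 and Slco6b1, and in 10.7% of all 32851 windows of the same length. AGGTCA, the letters of a nuclear receptor site, was in 10 member windows (18.2%) and in 16.3% of all windows. CACGTG was in 6 member windows (10.9%) and in 7.15% of all windows. A match is only a match of letters, and the shares in members and in all genes lay close together.

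Detection differed between subfamilies. Signals that the software marked well above background on 3 or more of the 7 arrays were found for 10 of 16 Abca, 9 of 10 Abcb, 9 of 10 Abcc, 5 of 6 Abcg and 7 of 15 Slco genes. Of the 40 genes tested, 37 were well above background on all 7 arrays. Abca4, Abca12 to Abca16 and Abcb5 were not well above background on any array. The same held for Slco1a5, Slco1a6, Slco4c1, Slco5a1, Slco6b1, Slco6c1 and Slco6d1. Abcc12, Abcg4 and Slco1c1 were well above background on 1 array each, so these 17 genes had no test.

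No transporter passed the test between the genotypes. With limma and Benjamini-Hochberg adjustment over 19974 genes, 0 of the 40 tested members had an adjusted p under 0.05, where 75 genes (0.375%) were called over the whole array. At an unadjusted p under 0.05 the count was 8 of 40 members (20%), all with higher signal in SHIVA, against 13.3% of all genes in either direction and 7.24% higher in SHIVA. That single direction did not hold in other settings. On the log2 table the authors deposited and on mean signal without background correction, 10 members were higher and 3 lower at this threshold. In both, 13.7% of all genes were at this threshold. With array weights, 12 members were higher and 4 lower, with 20.9% of all genes. The unpaired test named in the study's methods gave 5 of 40 members and 11.5% of all genes at an unadjusted p under 0.05, and 0 after adjustment. In 6 of 40 members (15%) every SHIVA value lay above every WT value, and in 0 every SHIVA value lay below, whereas 12.2% of all genes did not overlap, 6.14% with SHIVA higher and 6.02% with SHIVA lower. These 6 were Abca8b, Abcg3, Abcg5, Abcg1, Abca1 and Slco1a4. Without WT mouse 3 the members without overlap numbered 18 (28.9% of all genes) and those at an unadjusted p under 0.05 numbered 15 (19.1% of all genes). The count without overlap was 12 without WT mouse 1, 11 without SHIVA mouse 2 and 10 without SHIVA mouse 4, where the shares of all genes were 21.3%, 16.7% and 20.8%. Without SHIVA mouse 1 the unadjusted count was 5, with 9.43% of all genes.

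The mean was higher in SHIVA for 23 of the 40 members and for 48.8% of all genes. By subfamily, the median log2 fold change (SHIVA over WT) was 0.47 in Abca, 0.16 in Abcb, 0.12 in Abcc, 0.77 in Abcg and -0.06 in Slco, beside -0.01 over all genes tested. In Abcg, 4 of 5 tested members had the higher mean in SHIVA and 3 did not overlap. Abcg3, among these 3, passed the filter through SHIVA, with a signal well above background on 1 of 3 WT and 4 of 4 SHIVA arrays. The filter thus favoured a higher SHIVA value, and Abcg3 lends these counts no weight. Over the 37 members well above background on all arrays, 5 did not overlap (12.2% of all such genes), and the Abcg median was 0.72. In Abca, 6 of 10 were higher and 2 did not overlap. In Abcb and Abcc, 5 of 9 members each were higher and 0 were free of overlap, while in Slco 3 of 7 were higher and 1 did not overlap. The Abca median was 0.14 without WT mouse 1, and the Slco median ranged from -0.29 without WT mouse 2 to 0.24 without WT mouse 3.

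**Figure D1:**
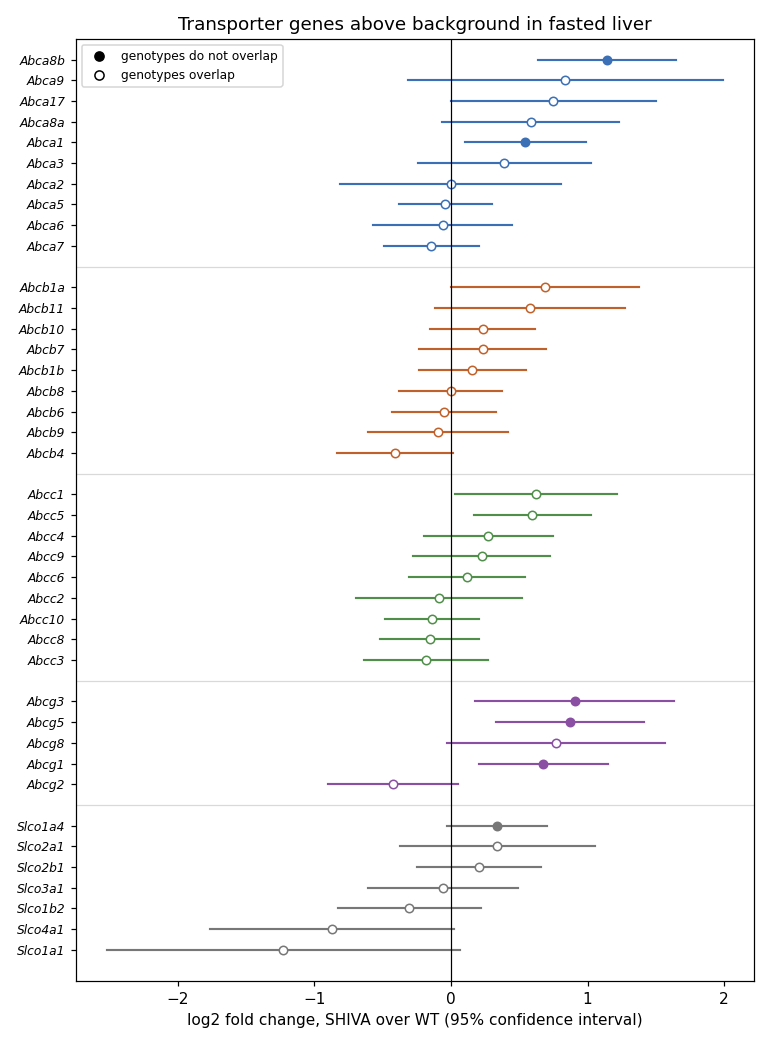
Log2 fold change (SHIVA over WT) of the 40 transporter genes tested, with its 95% confidence interval from limma, grouped by subfamily from Abca at the top to Slco at the bottom. Filled circles are the 6 genes whose genotypes did not overlap, and the values run from -1.23 for Slco1a1 to 1.14 for Abca8b.

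The precision of these values limits what the arrays could resolve. The 95% confidence interval of the log2 fold change excluded 0 for 8 members before adjustment for the number of genes, with a median distance of 0.50 from the estimate to either bound, and this distance was under 1 for 38 of the 40. WT mice were more spread in these genes than in the array as a whole. The median SD of log2 signal was 0.38 among WT and 0.24 among SHIVA mice over the transporters, and 0.25 and 0.23 over all genes tested. WT mouse 1 had the lowest WT value in 27 of the 40 (67.5%), against 34.9% of all genes, and WT mouse 3 the highest in 25 (62.5%), against 34.8%. The part of this spread in each result was not tested beyond leaving out each mouse.

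All arrays were on 1 slide, with WT in slide row 1 and SHIVA in row 2, so that row and genotype cannot be told apart. Of all probes, 44.5% to 46.3% were well above background on WT arrays and 45.8% to 48.7% on SHIVA arrays. The Sox17 probe was near background, well above it on 2 of 3 WT and 4 of 4 SHIVA arrays, with a log2 fold change of 0.69 (limma adjusted p = 0.28), and since the mutation is a missense change its level does not check the labels. Of the hepatocyte markers 6 of 6 were detected. The log2 of their mean signal, in which the brightest weigh most, was 17.11 to 17.22 in WT and 17.08 to 17.20 in SHIVA. By gene, 3 were higher and 3 lower in SHIVA, and Ttr alone was free of overlap, at -0.32 (limma adjusted p = 0.365). For 6 of 6 Kupffer cell and macrophage markers the SHIVA mean was above the WT mean, with 0 past the test. The log2 of their mean signal was 11.56 to 12.66 in WT and 12.06 to 13.21 in SHIVA. Erythroid markers had the higher SHIVA mean for 3 of 3 tested, with 2 wholly above WT, as were 6.14% of all genes. Neutrophil markers had it for 5 of 5, all with overlap. Of these, Ltf and Ngp were well above background on 0 of 3 WT and 3 of 4 SHIVA arrays. They passed the filter through SHIVA alone, so their direction carries no weight. SHIVA mouse 4 was the lowest SHIVA mouse for 5 of 5 neutrophil markers. Of 4 cholangiocyte markers tested, 1 was higher and 3 lower. The log2 of the mean signal over all 6 listed was 6.43 to 8.04 in WT and 6.26 to 7.11 in SHIVA. Of 6 stellate cell markers, 2 were higher and 4 lower, with 1 wholly above and 1 wholly below WT. Lymphocyte markers were higher for 3 and lower for 2 of 5, all with overlap.

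The sterol exporters Abcg5, Abcg8, Abca1 and Abcg1 had higher mean signal in SHIVA for 4 of 4, where 48.8% of all genes did. Their median log2 fold change was 0.72, and 0 of them passed the test. This grouping by role was not planned, and the count depends on which genes are put in it. Of members linked to lipids but placed in other groups, Abcb4 was at -0.41, Abca6 at -0.06 and Abca8b at 1.14. Abcg5 and Abcg8 together secrete cholesterol and plant sterols into bile. Abcg5 log2 signal was 11.16, 11.59 and 11.91 in WT and 12.28, 12.57, 12.04 and 12.79 in SHIVA. All SHIVA mice thus lay above all WT mice. Between the group means the log2 fold change was 0.87 ± 0.24 (SE, n = 3 and 4, 95% confidence interval 0.33 to 1.41), a 1.83-fold difference, with a limma adjusted p of 0.195. The probe lies at chr17:85057593-85057652 (mm9, minus strand).

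Abcg8, whose start window overlaps that of Abcg5, had log2 signal of 7.0, 7.64 and 8.49 in WT and 8.55, 8.01, 8.39 and 8.96 in SHIVA. WT mouse 3 lay within the SHIVA range, and the WT mice spread more widely than the SHIVA mice. The difference was a log2 fold change of 0.77 ± 0.35 (SE, interval -0.03 to 1.57, limma adjusted p = 0.394). It was 0.41 without WT mouse 1 and 1.16 without WT mouse 3. For both partners, WT mouse 1 was the lowest and WT mouse 3 the highest WT mouse, and SHIVA mouse 4 was the highest SHIVA mouse.

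Abca1 loads cholesterol and phospholipid onto apolipoprotein A-I, the start of high-density lipoprotein. Its log2 signal was 8.32, 9.08 and 8.74 in WT and 9.35, 9.11, 9.37 and 9.22 in SHIVA. The genotypes did not overlap, but the highest WT and the lowest SHIVA mouse were almost equal. SHIVA over WT, this gave a log2 fold change of 0.55 ± 0.19 (SE, interval 0.10 to 0.99, limma adjusted p = 0.278), and 0.35 without WT mouse 1.

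Abcg1 passes cholesterol to lipoprotein particles and is abundant in macrophages. The log2 signal of Abcg1 was 6.83, 6.97 and 7.45 in WT and 7.63, 8.13, 7.72 and 7.57 in SHIVA. SHIVA mouse 2 was the highest, and it was also the highest SHIVA mouse for 6 of 6 Kupffer cell and macrophage markers. In limma, the log2 fold change was 0.68 ± 0.21 (SE, interval 0.21 to 1.15, limma adjusted p = 0.233), and 0.55 without SHIVA mouse 2. The part of these cells in the difference was not tested.

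These 4 exporters are known targets of the liver X receptors (LXR), which sense oxysterols. The other 4 LXR targets listed had log2 fold changes of 0.52 for Srebf1, 0.08 for Scd1, -0.20 for Mylip and -0.25 for Lpcat3, each with overlap between the genotypes. The receptors themselves, Nr1h3 (LXRα) and Nr1h2 (LXRβ), had log2 fold changes of -0.11 and -0.03. None of these 6 genes passed the test.

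**Figure D2:**
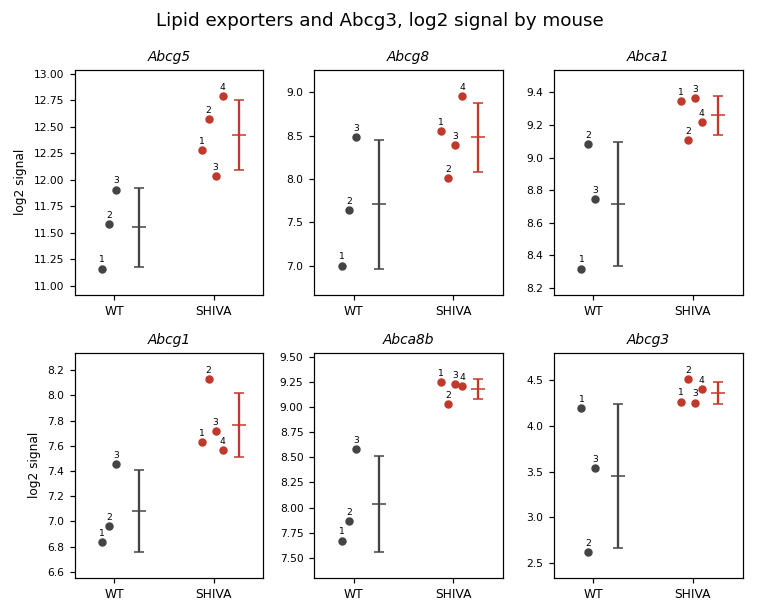
Normalized log2 signal (y axis) of Abcg5, Abcg8, Abca1, Abcg1, Abca8b and Abcg3 in each WT and SHIVA mouse (x axis), with numbered points for mice and bars for the mean ± SD of 3 WT and 4 SHIVA mice. Each panel has its own y range, which does not start at 0, and only in the Abcg8 panel do the genotypes overlap.

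Abca8b had the largest log2 fold change of the members higher in SHIVA and the smallest p of all 40. It belongs with Abca5, Abca6, Abca8a and Abca9 to a group of closely related genes on chromosome 11 that are linked to lipid transport. Abca8b log2 signal was 7.67, 7.86 and 8.58 in WT (8.04 ± 0.48, SD, n = 3) and 9.25, 9.03, 9.23 and 9.21 in SHIVA (9.18 ± 0.10, SD, n = 4). The SHIVA mice lay close together and above all WT mice, and WT mouse 3 was the nearest to them. The log2 fold change was 1.14 ± 0.22 (SE, interval 0.64 to 1.64), a 2.21-fold difference (1.56 to 3.13), with a limma adjusted p of 0.0877. Abca8b passed the threshold in 4 of 18 other ways of processing. The limma adjusted p was 0.0401 on the log2 table the authors deposited and 0.0396 on mean signal without background correction. That table follows the mean signal, so these are not separate evidence. It was 0.021 with array weights and 0.014 without WT mouse 3. Over the 18 the log2 fold change ran from 0.95 to 1.41.

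The neighbours of Abca8b were less uniform, and 0 of them were free of overlap. The Abca8b probe lies at chr11:109795589-109795648 and that of Abca8a at chr11:109945491-109945550, both mm9 and on the minus strand. These probes shared at most 25 of 58 bases in any alignment without gaps. The log2 fold change was 0.58 for Abca8a (limma adjusted p = 0.426), 0.84 for Abca9 (adjusted p = 0.53), -0.06 for Abca6 and -0.04 for Abca5. Abca9 was well above background on 2 of 3 WT arrays. A dimmer Abca5 probe, well above background on 3 of 7 arrays, differed by 1.18 with no overlap, so that the Abca5 probes disagreed. These 4 neighbours are named for their position and were chosen after their values were seen.

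Abcg3, a rodent gene related to Abcg2, was near background. Abcg3 log2 signal was 4.19, 2.62 and 3.53 in WT and 4.26, 4.51, 4.25 and 4.40 in SHIVA, well above background on 1 of 3 WT and 4 of 4 SHIVA arrays. WT mouse 1 lay just under the SHIVA mice and WT mouse 2 far below. The log2 fold change of 0.90 ± 0.32 (SE, limma adjusted p = 0.275) was 0.49 without WT mouse 2 and 0.16 to 0.26 when dim signals were treated in other ways (normexp background correction, or mean signal without correction).

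The canalicular exporters showed no common direction. Of Abcb11, Abcb4, Abcb1a, Abcb1b, Abcc2 and Abcg2, 3 had the higher and 3 the lower mean in SHIVA, with a median log2 fold change of 0.04, and all 6 overlapped between the genotypes. Abcb11, the bile salt export pump, had log2 signal of 11.09, 11.81 and 12.55 in WT and 12.43, 12.17, 12.55 and 12.44 in SHIVA. The SHIVA mice sat together within the upper part of the WT range. The fitted log2 fold change was 0.58 ± 0.31 (SE, interval -0.12 to 1.27, limma adjusted p = 0.465), 0.22 without WT mouse 1 and 0.95 without WT mouse 3.

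Abcb4 is the flippase that supplies phosphatidylcholine to bile. Its log2 signal was 13.58, 14.13 and 13.82 in WT and 13.43, 13.14, 13.65 and 13.51 in SHIVA. SHIVA mouse 3 alone reached the WT range. The resulting log2 fold change was -0.41 ± 0.19 (SE, interval -0.84 to 0.01, limma adjusted p = 0.394), and -0.27 without WT mouse 2.

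Abcc2 exports bilirubin glucuronides and other conjugates into bile. The log2 signal of Abcc2 was 10.33, 10.99 and 11.06 in WT and 11.0, 10.09, 10.85 and 10.87 in SHIVA. WT mouse 1 and SHIVA mouse 2 were low and the other mice of both genotypes lay close together. The log2 fold change of -0.09 (limma adjusted p = 0.924) had no stable sign and was 0.12 without SHIVA mouse 2.

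Abcg2, an exporter of urate, porphyrins and sulphate conjugates, had log2 signal of 9.61, 9.73 and 9.49 in WT and 9.13, 9.70, 8.89 and 9.04 in SHIVA. SHIVA mouse 2 lay in the WT range and the other SHIVA mice lay below it. This was a log2 fold change of -0.42 ± 0.21 (SE, interval -0.90 to 0.05, limma adjusted p = 0.432). Abcb1a and Abcb1b encode the drug pump P-glycoprotein in mice. Abcb1a log2 signal was 6.13, 6.29 and 7.18 in WT and 7.24, 6.69, 7.28 and 7.67 in SHIVA, where SHIVA mouse 2 lay below WT mouse 3. Its log2 fold change of 0.69 ± 0.30 (SE, limma adjusted p = 0.377) was 0.39 with normexp background correction. Abcb1b had a log2 fold change of 0.16 (limma adjusted p = 0.75), in which values of 4.32 to 4.62 in WT and 4.36 to 4.91 in SHIVA overlapped.

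The basolateral exporters Abcc3, Abcc4 and Abcc6 differed little. Abcc3, which returns conjugates from hepatocyte to blood, had log2 signal of 12.87, 13.34 and 13.66 in WT and 13.08, 13.00, 13.08 and 13.29 in SHIVA. All SHIVA values fell inside the WT range. Its log2 fold change was -0.18 ± 0.20 (SE, limma adjusted p = 0.752), -0.39 without WT mouse 1 and 0.0032 without WT mouse 3. Abcc4, an exporter of cyclic nucleotides and bile salts, had a log2 fold change of 0.27 (interval -0.20 to 0.75, limma adjusted p = 0.621). Abcc6, the hepatocyte gene behind pseudoxanthoma elasticum, had 0.12 (interval -0.31 to 0.54, limma adjusted p = 0.835).

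The other members at an unadjusted p under 0.05 were Abca17, Abcc1 and Abcc5, which are named here after their values were seen. All 3 overlapped between the genotypes. Abcc5, an exporter of cyclic nucleotides, had log2 signal of 6.06, 6.05 and 6.59 in WT and 6.85, 7.02, 6.86 and 6.58 in SHIVA. WT mouse 3 and SHIVA mouse 4 were almost equal. The log2 fold change of Abcc5 was 0.60 ± 0.19 (SE, limma adjusted p = 0.236), but a different Abcc5 probe, also well above background on all 7 arrays, gave -0.08. Abcc1, an exporter of glutathione conjugates, had a log2 fold change of 0.62 (limma adjusted p = 0.353), which was 0.34 without WT mouse 2 and 0.26 with normexp background correction. Abca17 had 0.75 (limma adjusted p = 0.375). Abcb6 to Abcb10, transporters of mitochondria and lysosomes, had log2 fold changes from -0.09 to 0.23 with a median of -0.0022, 2 higher and 3 lower in SHIVA.

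Among the organic anion uptake carriers, Slco1a4 was the only tested Slco gene without overlap. Its log2 signal was 11.33, 11.34 and 11.47 in WT and 11.62, 11.67, 11.54 and 12.04 in SHIVA. The WT mice were close to each other, and SHIVA mouse 4 stood above the other SHIVA mice. The difference was a log2 fold change of 0.34 ± 0.16 (SE, interval -0.03 to 0.71, limma adjusted p = 0.414), a 1.27-fold difference. Its start window, printed above with the SOX letters in capitals, carries no measurement of binding.

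Slco1a1, an uptake carrier of sulphated steroids and bile salts, varied widely among SHIVA mice. Slco1a1 log2 signal was 5.77, 6.58 and 6.65 in WT and 5.07, 3.66, 5.19 and 6.50 in SHIVA. Of the SHIVA mice, 3 lay below all WT mice and SHIVA mouse 4 lay among them. The log2 fold change of -1.23 ± 0.57 (SE, interval -2.52 to 0.07, limma adjusted p = 0.401) was -0.75 without SHIVA mouse 2 and -0.68 on the log2 table the authors deposited. The probes of Slco1a1 and Slco1a4, close relatives on chromosome 6, shared at most 21 of 58 bases.

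Slco1b2 is the main rodent carrier of bilirubin conjugates and many drugs into hepatocytes. Its log2 signal was 14.14, 14.54 and 14.83 in WT and 14.39, 13.72, 14.33 and 14.35 in SHIVA. SHIVA mouse 2 was below all other mice, and the other SHIVA mice lay inside the WT range. SHIVA over WT, this gave a log2 fold change of -0.31 ± 0.23 (SE, interval -0.83 to 0.22, limma adjusted p = 0.619), and -0.15 without SHIVA mouse 2.

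Slco2b1, a carrier of steroid sulphates, had 0.21 ± 0.20 (SE, limma adjusted p = 0.719), a log2 fold change that was 0.0042 without WT mouse 1. Slco2a1, the prostaglandin carrier, is known in endothelium. It ranged from 10.05 to 11.33 in WT and from 10.81 to 11.58 in SHIVA, with a log2 fold change of 0.34 (limma adjusted p = 0.706) that was -0.039 without WT mouse 1. For endothelial markers, the log2 of the mean signal was 11.41 to 11.67 in WT and 11.18 to 11.43 in SHIVA. Of these markers, 3 of 6 had the higher mean in SHIVA. Slco4a1, a carrier of thyroid hormone, was near background, well above it on 3 of 3 WT and 2 of 4 SHIVA arrays, with a log2 fold change of -0.87 (limma adjusted p = 0.392). The 7 tested members not yet given, Abca2, Abca3, Abca7, Abcc8, Abcc9, Abcc10 and Slco3a1, overlapped between the genotypes and had log2 fold changes from -0.16 to 0.39. These and Slco4a1 are named to complete the account, after their values were seen.

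**Figure D3:**
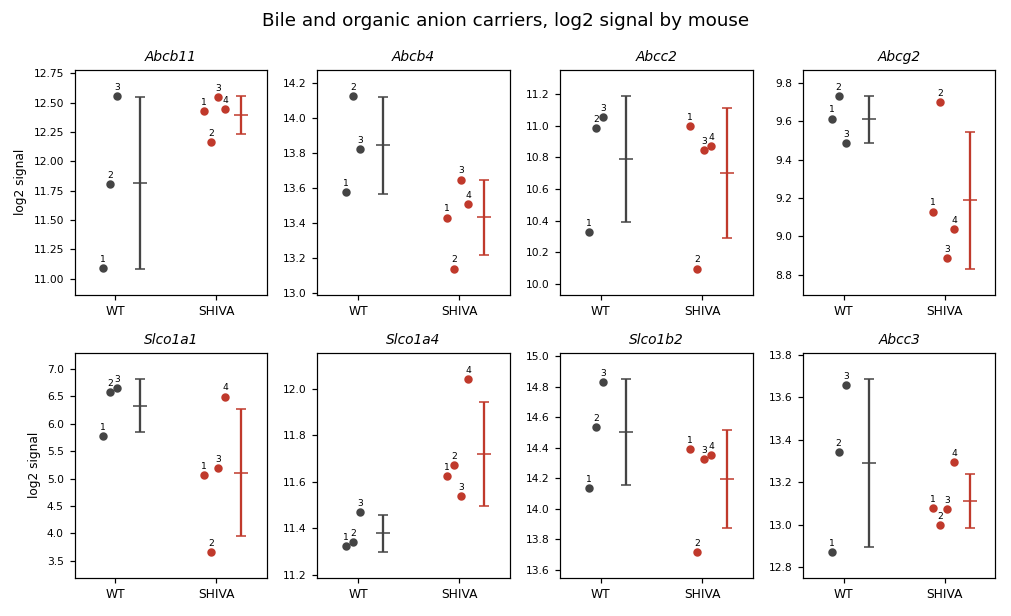
Normalized log2 signal (y axis) of Abcb11, Abcb4, Abcc2, Abcg2, Slco1a1, Slco1a4, Slco1b2 and Abcc3 in each WT and SHIVA mouse (x axis), with numbered points for mice and bars for the mean ± SD of 3 WT and 4 SHIVA mice. Each panel has its own y range, which does not start at 0, and SHIVA mouse 2 is the lowest mouse for Abcc2, Slco1b2, Slco1a1 and Abcb4.

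SHIVA mouse 2 also had by far the highest signal of Saa2, an acute-phase gene, at 17.36 on the log2 scale against 11.99 to 12.82 in the other SHIVA mice and 10.36 to 12.11 in WT. The part of this response in the low carrier values of that mouse was not tested.

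Other genes of bile formation and transporter control were read from lists. Of 10 tested carriers outside these families, 5 had the higher and 5 the lower mean in SHIVA, and 0 passed the test. In 3 of them SHIVA lay wholly above WT, as in 6.14% of all genes. Atp8b1, the aminophospholipid flippase of the canalicular membrane, was at 5.53 to 5.74 in WT and 6.41 to 6.84 in SHIVA, a log2 fold change of 0.96 ± 0.16 (SE, limma adjusted p = 0.0557). Ostb, part of the basolateral bile salt exporter, had 1.30 (limma adjusted p = 0.18), with a dim WT signal of 3.69 to 5.25. The log2 fold change of Ostb ran from 0.44 to 1.73 over 17 other ways of processing. Osta, the partner of Ostb, was not well above background on any array. Slc10a2, the apical bile salt carrier, had 0.79 (limma adjusted p = 0.176). Slc10a1 (NTCP), the sodium-dependent bile salt carrier, had -0.03.

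The other ABC genes, which include the peroxisomal Abcd genes, had 4 of 10 higher and 6 lower, and 0 passed. Abcd3 at -0.60 and Abcd4 at -0.78 were wholly below WT (limma adjusted p of 0.18 and 0.147), as was Abcf2 at -0.34 (adjusted p = 0.373). Of 15 receptors and factors known to control transporter genes, 4 were higher and 11 lower, and 0 passed. Nr1i3 (CAR), a sensor of foreign compounds, was at 13.04 to 13.12 in WT and 11.90 to 12.39 in SHIVA, a log2 fold change of -0.97 ± 0.16 (SE, limma adjusted p = 0.0543). Ppara, the fatty acid receptor of fasting, had -0.67 (limma adjusted p = 0.132). Nr1h4 (FXR), the bile salt receptor known to drive Abcb11, had -0.63 with overlap (limma adjusted p = 0.325). Of the 4 higher, Nfe2l2, which encodes NRF2, had 0.77 and Ahr 0.54, both with overlap (limma adjusted p of 0.282 and 0.307). Of 6 known CAR and PXR targets, 2 were higher and 4 lower, and 0 passed. Of 8 known targets of NRF2, a factor of the response to oxidants, 3 were higher and 5 lower, and 1 passed, the glutathione transferase gene Gsta1, with a log2 fold change of 2.42 (limma adjusted p = 0.0299).

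**Figure D4:**
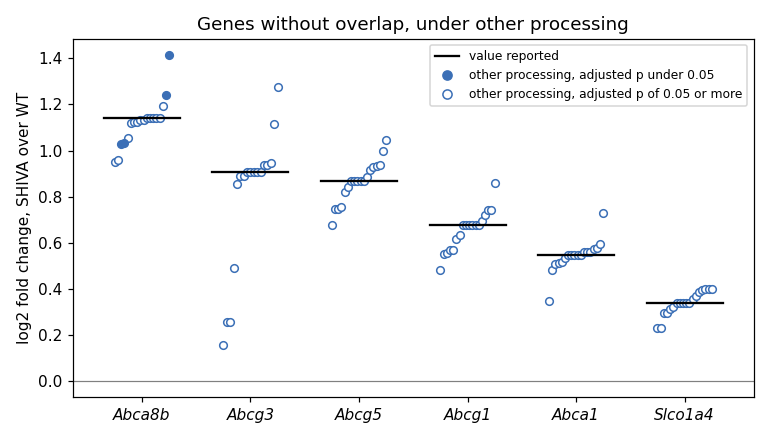
Log2 fold change (SHIVA over WT, y axis) of the 6 transporters without overlap between the genotypes, with the reported value as a line and each of 18 other ways of processing, leaving out of each mouse included, as a circle. Filled circles mark a limma adjusted p under 0.05, reached by Abca8b in 4 of 18 and by no other gene shown, and all circles lie above 0.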

How the data were processed

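Total liver RNA of 3 WT and 4 SHIVA mice was labelled with Cy3 and hybridized to 7 Agilent arrays, 1 for each mouse. The authors deposited the processed intensity of each spot as scanner output, made with Agilent Feature Extraction 10.5.1.1 per the submitters' processing notes. They also deposited a log2 table, quantile normalized per the study's methods, which follows the mean signal without background correction. It served as an alternative. Both hold intensities, so the number of arrays limits the precision.

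Control spots (3671) and spots marked as uneven or deviant (120 to 163 on each array) were left out of 62976 spots. Processed intensities were quantile normalized with limma 3.58.1 (R 4.3.3) and then log2 transformed. A gene was tested where its brightest probe exceeded background by the software's flag on 3 arrays or more. SHIVA was compared with WT with lmFit and eBayes, and a gene was called where the p adjusted by Benjamini-Hochberg was under 0.05. Probe positions are those given in the files (mm9). Their exon or UTR annotation was not used here. Accessions placed 55 of the 57 members in the RefSeq table of GRCm38.p6, and all kept their names. Detection was read from the software's flags, and the procedure was tested on simulated data.

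Genes named in the text are those without overlap and with the largest log2 fold change (at most 10), those past the threshold, and 18 transporters known in liver. Others were named after their values were seen. Members and lists were chosen with earlier results of these data known. Alternatives were the scaling, background correction, filter on dim probes, probe choice, names, array weights, the methods' t-test, a replicate block and leaving out each mouse. The value of 1 listed carrier outside these families is not reported here.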

Additional observations from a re-analysis of the deposited data

Results flagged for a closer look

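Of 25 genes searched among the 4 SHIVA mice, 2 had a mouse whose gap to the nearest of the other 3 took most of the group's range, where 1.25 are expected by chance. The 3 WT mice were not searched, since groups of 3 are too small. Abcc2, the canalicular exporter of conjugates, had a log2 signal of 10.09 in SHIVA mouse 2 and 10.85 to 11.0 in the other SHIVA mice. Slco1b2, the uptake carrier of bilirubin conjugates, had 13.72 in the same mouse and 14.33 to 14.39 in the others. SHIVA mouse 2 was also the highest SHIVA mouse for Saa2 (17.36) and for 6 of 6 Kupffer cell and macrophage markers. The part of these in the low values was not tested.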

How the results depend on the processing

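The count of 75 genes called over the array was 142 on mean signal without background correction and on the log2 table the authors deposited, 13 with no filter on dim probes, 274 with array weights and 0 with the methods' t-test (2299 unadjusted). Leaving out 1 mouse gave 3 (without WT mouse 1) to 415 (without WT mouse 3). Of the transporters, 0 were called, and 1, Abca8b, on mean signal, on the deposited table and with array weights, and 0 to 1 without 1 mouse. The 8 at an unadjusted p under 0.05 (13.3% of all genes) became 13, 13 and 16 in these settings. The shares of all genes there were 13.7%, 13.7% and 20.9%. The unadjusted count was 5 by the t-test (11.5% of all genes) and 5 to 15 without 1 mouse (9.18% to 19.1% of all genes). The 6 without overlap (12.2% of all genes) became 6 to 18 without 1 mouse (14.2% to 28.9% of all genes). The Abca median was 0.056 with no filter and 0.14 to 0.57 without 1 mouse, the Abcg median 0.48 with normexp, and the Slco median -0.29 to 0.24 without 1 mouse. Abcc2 turned to 0.021 with array weights and ran from -0.32 to 0.12 without 1 mouse, Abcc3 from -0.39 to 0.0032 and Slco2a1 from -0.039 to 0.60. The cause was not tested. No other sign changed among 25 genes under 18 settings, in which 426 of 448 values kept their direction and side of the threshold. Atp8b1 passed in 5 settings and Nr1i3 in 7. The median of all genes was -0.02 with arrays scaled to the 75th percentile.

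Mice with the same number in both genotypes deviated from their group means with correlations of -0.05, 0.01 and 0.24, so the numbers were not taken as pairs, and not every mouse correlated best with its own number. The fit with the replicate number as a block called 32 genes and 0 transporters. It had 9 transporters at an unadjusted p under 0.05, 7 higher and 2 lower in SHIVA, with 14.2% of all genes. Added after seeing the data were the median of all genes, the unadjusted count and the values of Abcc1, Abcc5, Atp8b1, Ostb and Nr1i3. The groups of transporters by role were not planned either. Signals near background, as of Abcg3 and Slco4a1, limit the smallest values.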
